A study of Mus musculus with 15 samples.

Results

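Cells sorted from mouse lung cultures were compared with Endomucin-positive (Emcn+) bone marrow endothelial cells (BMEC) sorted from primary (P0) cultures of whole bone marrow. The set of genes described took in those for which both libraries of a side reached 5 CPM (the count of a gene scaled to the total count of its library). This held for 11351 of the 44674 genes in the count table, of which 9549 reached the limit on both sides, 1033 only in lung and 769 only in P0 Emcn+ BMECs. Marker genes, other single genes and gene lists named below also include genes under this limit. The 4 libraries compared belong to a series of 15. The cells that the study names P0 Emcn- BMECs, with 2 libraries, are given beside them. They share the tissue with P0 Emcn+ and, by the study's methods, the Emcn status with lung.

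All of these samples carry the genotype label WT. The methods of the study describe mice of 4 to 6 months that carried Tie2-CreERT2, a tamoxifen-inducible Cre under the Tek promoter, and a Rosa26-tdTomato reporter, and a sort of tdTomato+CD45- cells after about 2 weeks of culture in endothelial medium. One dish usually came from 1 mouse. How many mice gave each bulk RNA library is not stated, and each of the 4 held both X-inactivation and Y-linked transcripts. Marrow was cultured from femurs and tibias, while lungs were minced and digested before plating. Lung libraries are labelled with the tissue alone, and that they were Emcn- cells comes from the methods. Tissue, start of culture and Emcn status therefore differ together between the sides, and their parts cannot be told apart. Each side holds 1 library of batch d (replicate 1) and 1 of batch a (replicate 2), and pairs of values are given in this order throughout.

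Endothelial cells line blood vessels and are held together by VE-cadherin, the product of Cdh5. Their growth and quiescence depend on the VEGF receptors and on the angiopoietin receptor Tie2, and Notch ligands of neighbouring cells separate leading tip cells from trailing stalk cells in a sprout. The sinusoids of bone marrow are wide, leaky venous vessels whose lining takes up material from blood through scavenger receptors, and Endomucin is a sialomucin of venous and capillary endothelium. Fibroblasts, which produce the collagens and elastic fibres of connective tissue, carry the PDGF receptors Pdgfra and Pdgfrb.

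The labelled cell type was checked against its markers before the comparison. The P0 Emcn+ libraries held the endothelial markers at high levels, whereas both lung libraries held them at low levels and the fibroblast markers at high levels. Kdr, the main VEGF receptor, had 8.5 and 12 CPM in lung and 587 and 288 CPM in P0 Emcn+. Col1a1, a chain of type I collagen, had 2699 and 2565 CPM in lung and 57.4 and 64.3 CPM in P0 Emcn+. The 34 pan-endothelial genes summed to 720 and 2014 CPM in lung, to 20983 and 18486 CPM in P0 Emcn+, as against 750 and 393 CPM in P0 Emcn-. The 30 fibroblast genes summed to 33533 and 40214 CPM in lung, to 7639 and 9272 CPM in P0 Emcn+, as against 49123 and 43724 CPM in P0 Emcn-. The lung libraries are therefore called by their tissue here, not as endothelial cells. The P0 Emcn- libraries also held low endothelial and high fibroblast sums. BMEC is the study's name for them, which the RNA of these markers does not bear out. The study's evidence for the name included the tdTomato sort and staining of VE-cadherin and CD31 protein in the colony-forming, Emcn- cells. It also reported genes of mesenchymal cells as enriched in the RNA of P0 Emcn- cells. In whole-sample RNA, fewer cells of a type and less RNA per cell cannot be told apart.

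**Figure D1:**
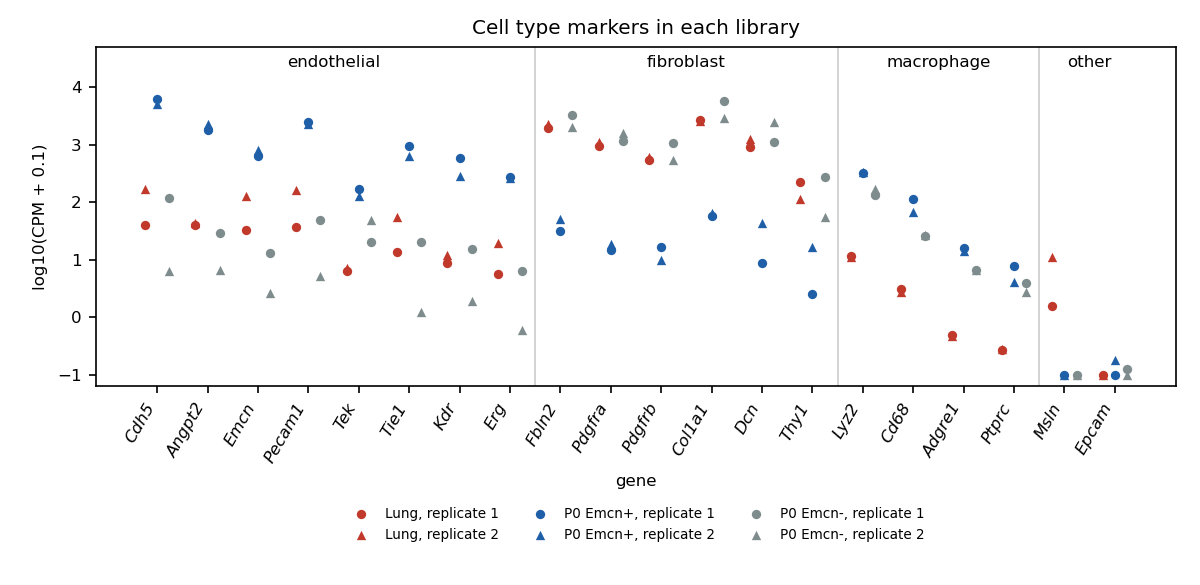
Level of 20 marker genes, as log10(CPM + 0.1), in the 2 lung, 2 P0 Emcn+ and 2 P0 Emcn- libraries (circles, replicate 1; triangles, replicate 2). Endothelial markers are highest in both P0 Emcn+ libraries, fibroblast markers are higher in lung and P0 Emcn- than in P0 Emcn+, and the 4 macrophage markers drawn are lowest in lung.

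Library totals were 36214724 and 21688654 counts for lung and 31555985 and 25875548 counts for P0 Emcn+, so 3 counts correspond to less than 0.14 CPM in each. Replicates differed by more than counting noise on both sides. The lung libraries stood apart from each other in several gene groups. Lung 1 was higher in 21 of 21 interferon genes, in 30 of 30 cell cycle genes and in 16 of 19 macrophage genes tested. Lung 2 was higher in 32 of 34 pan-endothelial genes. Lung 1 was the higher in only 5 of 27 tip genes and 2 of 22 collagen and basement membrane genes. Of the 11351 genes described, 411 were over 2-fold higher in lung 1 and 324 in lung 2. The interferon, cell cycle and pan-endothelial groups are given below with and without single libraries. By the study's reporting summary, replicates are separate cultures from different animals.

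In an edgeR quasi-likelihood fit with the batch as a block, 2475 of 19401 genes tested (12.8%) were higher in lung and 1675 (8.63%) were higher in P0 Emcn+, at an adjusted p under 0.05 and a log2 fold change (lung over P0 Emcn+) beyond 1.5 in size. Of the 9549 genes that reached 5 CPM on both sides, 501 were called higher in lung and 516 higher in P0 Emcn+, and 80.3% lay within 1 log2 unit of no change. Reaching the limit on one side only favours genes that differ, so the counts that follow are a description: 746 of the 1033 lung genes and 519 of the 769 P0 Emcn+ genes of this kind were called. Within-batch log2 ratios had the same sign in both batches for every called gene. The calls rest on the same libraries and on limits that favour such genes, so this is a description and no separate test. Opposite signs occurred for 2213 of the 11351 genes, none of them called. Counts for the gene lists below are to be read against the shares over all genes tested (12.8% and 8.63%). They cover all genes of a list that were tested, also those under 5 CPM on both sides.

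**Figure D2:**
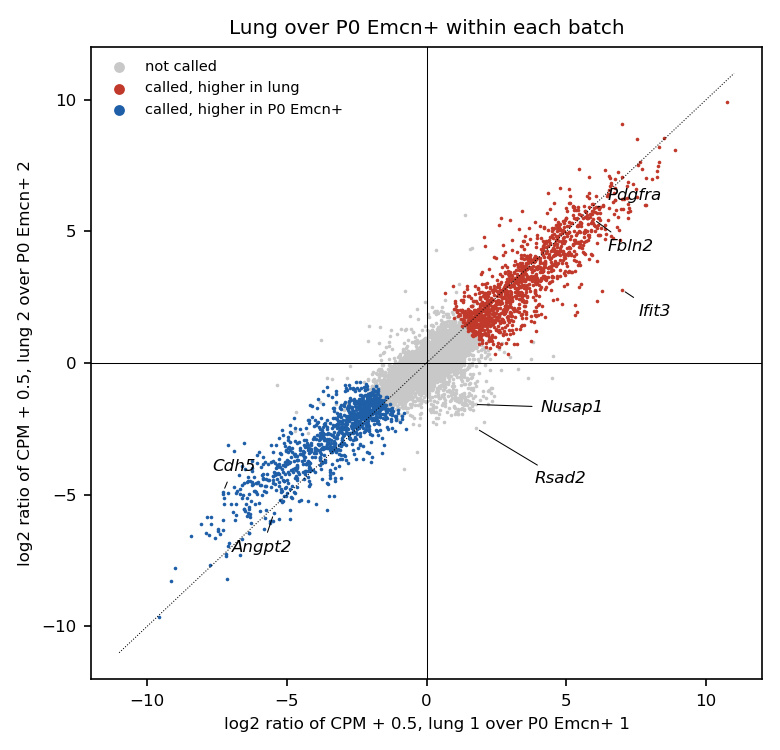
Each of the 11351 genes by its log2 ratio of CPM + 0.5, lung over P0 Emcn+, in batch d (horizontal) and batch a (vertical). Called genes (red, higher in lung; blue, higher in P0 Emcn+) lie along the diagonal with the same sign in both batches, whereas a group of uncalled genes, Nusap1 and Rsad2 among them, lies at positive ratios in batch d and negative ratios in batch a.

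Cdh5 (chr8:104101625-104144511, GRCm38, plus strand) had 39.5 and 171 CPM in lung, 6222 and 5118 CPM in P0 Emcn+, against 119 and 6.35 CPM in P0 Emcn-. Both lung libraries were far below both P0 Emcn+ libraries, with a log2 fold change of -5.54 ± 1.69 (SE, edgeR adjusted p = 0.0306). Lung replicate 2 held more than 4 times the level of lung replicate 1, and the call was lost without lung replicate 1 (log2 fold change -4.26, adjusted p = 0.155), the replicate 1 library of P0 Emcn+ (-5.73, adjusted p = 0.0594) or the replicate 2 library of P0 Emcn+ (-5.15, adjusted p = 0.201). Angpt2 (chr8:18690263-18741562, minus strand), which encodes the angiopoietin that antagonises Tie2 signalling, had 39.8 and 43.9 CPM in lung and 1769 and 2291 CPM in P0 Emcn+. Its log2 fold change was -5.59 ± 1.21 (adjusted p = 0.00696), and the call was lost without lung replicate 1 (-5.25, adjusted p = 0.069) or the replicate 2 library of P0 Emcn+ (-4.85, adjusted p = 0.0511).

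The matrix and fibroblast markers ran the other way in both batches. Fbln2 (chr6:91212455-91272540, plus strand), which encodes the matrix protein fibulin-2, had 1977 and 2259 CPM in lung and 31.3 and 50.4 CPM in P0 Emcn+ (fold change on the log2 scale 5.73 ± 0.50, edgeR adjusted p = 8.03e-05). Pdgfra (chr5:75152292-75198215, plus strand) had 938 and 1122 CPM in lung and 14.4 and 18.6 CPM in P0 Emcn+ (fold change on the log2 scale 6.01 ± 0.40, edgeR adjusted p = 2.37e-05). The P0 Emcn- libraries held 3230 and 1987 CPM of Fbln2 and 1147 and 1566 CPM of Pdgfra. Both calls held in each alternative fit and with each library left out. Emcn itself (chr3:137341067-137432185, plus strand), whose protein the sort used, had 32.6 and 125 CPM in lung, 631 and 798 CPM in P0 Emcn+, against 12.7 and 2.52 CPM in P0 Emcn-. Lung against P0 Emcn+ was not called for this gene (fold change on the log2 scale -3.22 ± 1.22, edgeR adjusted p = 0.0682). As the basis of the sort it is no test of the groups.

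Of the 34 pan-endothelial genes, all tested, 25 were higher in P0 Emcn+, 1 was higher in lung and 8 were not called, with a median log2 fold change of -4.37 against 0.05 over all genes tested. In 32 of the 34 lung had the lower level in both batches. Robo4, a guidance receptor of endothelium, had 1.57 and 7.15 CPM in lung and 713 and 734 CPM in P0 Emcn+ (fold change on the log2 scale -7.36 ± 1.55). Cldn5, the claudin of endothelial tight junctions, had 2.35 and 1.06 CPM in lung and 407 and 246 CPM in P0 Emcn+ (-7.73 ± 1.07). Plvap, which forms the diaphragms of fenestrae and caveolae, had 2.6 and 5.16 CPM in lung and 551 and 443 CPM in P0 Emcn+ (-6.94 ± 0.82). The transcription factor gene Erg stood at 5.58 and 19.3 CPM in lung and 270 and 259 CPM in P0 Emcn+ (-4.40 ± 0.97), and Sox17 at 2.29 and 4.1 and 214 and 113 CPM (-5.49 ± 1.15). These genes were low in both lung libraries, and lung 2 was above lung 1 in 4 of the 5. The call was lost for Robo4 without the replicate 2 library of P0 Emcn+ (-7.10, adjusted p = 0.0555), for Erg without lung replicate 1 (-3.37, adjusted p = 0.0524) or the replicate 2 library of P0 Emcn+ (-4.49, adjusted p = 0.0604) and for Sox17 without the same libraries (-4.46, adjusted p = 0.0732, and -5.63, adjusted p = 0.0665). Sox17 was not called with DESeq2 either (-5.30, adjusted p = 0.119).

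How many endothelial genes were called depended on single libraries. Without lung replicate 1, 10 of the 34 were called higher in P0 Emcn+, and leaving out P0 Emcn+ replicate 2 also gave 10, while it was 19 without P0 Emcn+ replicate 1 and 25 without lung replicate 2. The median log2 fold change was -3.20 without lung replicate 1 and -5.84 without lung replicate 2. The pan-endothelial gene higher in lung was Vwf, which encodes von Willebrand factor, with 21.9 and 201 CPM in lung, 4.82 and 6.72 CPM in P0 Emcn+, against 3.5 and 3.33 CPM in P0 Emcn- (fold change on the log2 scale 3.83 ± 0.70, edgeR adjusted p = 0.00313). Its excess in lung 1 was far smaller than in lung 2. Gata2 was not called, at 13.6 and 38.1 CPM in lung and 30.5 and 49 CPM in P0 Emcn+, nor was Flt1, the VEGF decoy receptor, at 65.9 and 88.5 and 26 and 48 CPM.

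**Figure D3:**
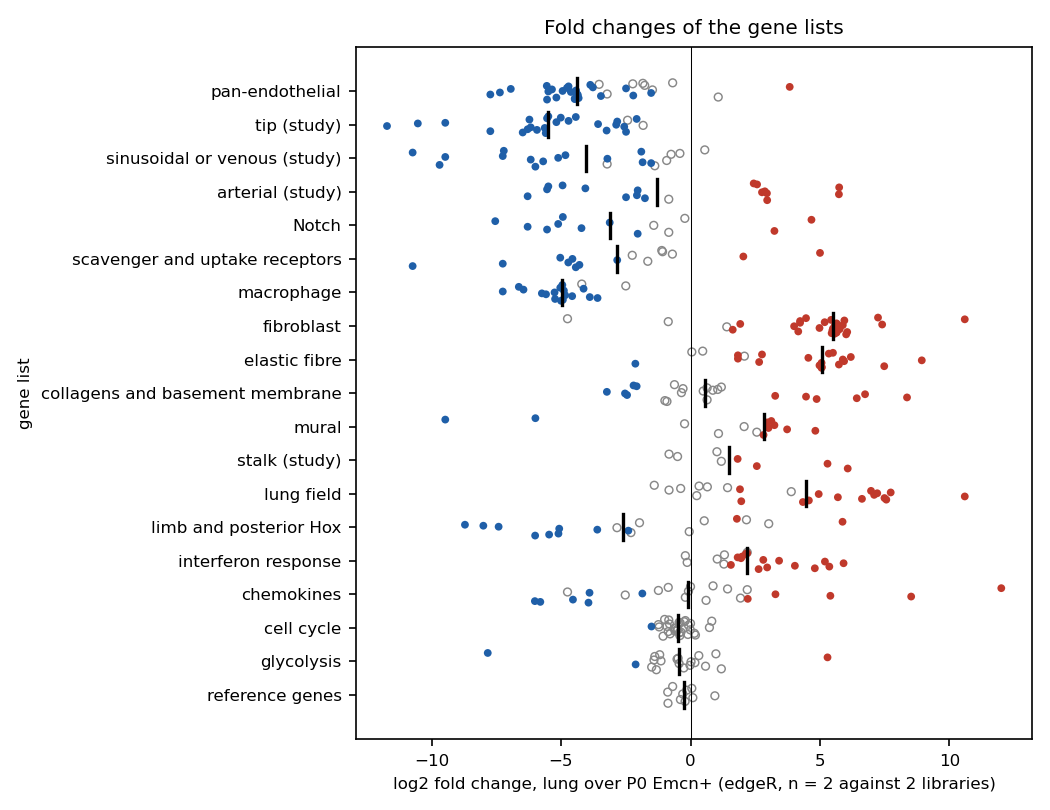
Log2 fold change, lung over P0 Emcn+, of every tested gene in 19 gene lists (filled, called, red for lung and blue for P0 Emcn+; open, not called; black bar, median of the list). The endothelial, Notch, scavenger and macrophage lists lie mostly to the left of 0, the fibroblast, elastic fibre, lung field and interferon lists mostly to the right, and cell cycle and reference genes around 0.

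The promoters of the endothelial genes were searched for AGGAAG, a core that ETS factors such as Erg can bind, in the 250 bases before the start site, on both strands, using RefSeq sequences of GRCm38.p6. A match stood in 8 of the 17 pan-endothelial genes with a sequence (47.1%), against 32.3% of all 27025 symbols. Among lists mostly higher in lung, the share was 10 of 19 in fibroblast genes (52.6%) and 4 of 11 in lung field genes (36.4%). It was 4 of 14 in elastic fibre genes (28.6%) and 2 of 16 in interferon genes (12.5%). Lists that ran the other way thus lay on both sides of the pan-endothelial share. Stretches of the Robo4 and Emcn promoters are shown because both genes belong to this list, with the matches (AGGAAG, or CTTCCT where it reads on the opposite strand) in capitals, each 5′ to 3′ on the strand of its gene.
Robo4, chr9:37401908-37401943, plus strand: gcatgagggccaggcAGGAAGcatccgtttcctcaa
Emcn, chr3:137340889-137341005, plus strand: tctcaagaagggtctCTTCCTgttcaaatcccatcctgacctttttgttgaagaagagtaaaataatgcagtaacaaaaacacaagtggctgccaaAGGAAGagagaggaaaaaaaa

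Genes that the study lists for tip cells were higher in P0 Emcn+ in 25 of 27 cases and higher in lung in none, with a median log2 fold change of -5.49. All 27 were lower in lung in both batches. The study drew this list and the arterial, sinusoidal and stalk lists from published work. The lists share genes: Cldn5, Kdr, Mcam and Cd34 are also pan-endothelial here, and Dll4, Notch4, Sox17 and Cd34 are also arterial. Their counts are therefore not separate results, and a tip difference apart from the endothelial one was not tested. Gpihbp1, which carries lipoprotein lipase across capillary endothelium, had 0.138 and 0 CPM in lung and 328 and 109 CPM in P0 Emcn+ (fold change on the log2 scale -11.72 ± 1.12). Kcne3, a potassium channel subunit, had 0.0552 and 0.0922 CPM in lung and 149 and 40.7 CPM in P0 Emcn+ (-10.53 ± 1.49). Apln, the ligand apelin, had 9.33 and 26.1 CPM in lung and 2046 and 1535 CPM in P0 Emcn+ (-6.48 ± 1.43), and Esm1, the secreted proteoglycan endocan, had 2.18 and 5.63 and 369 and 52.7 CPM (-5.63 ± 1.34). Both P0 Emcn+ libraries exceeded both lung libraries in each, although P0 Emcn+ replicate 1 held more than 2 times the level of replicate 2 for Gpihbp1, Kcne3 and Esm1. The call was lost for Apln without lung replicate 1 (-5.38, adjusted p = 0.0599) or the replicate 2 library of P0 Emcn+ (-6.28, adjusted p = 0.0537), for Esm1 without lung replicate 1 (-4.27, adjusted p = 0.112) and for Kcne3 with DESeq2 (-9.42, adjusted p = 0.153). Of the 8 stalk genes, 4 were higher in lung and none in P0 Emcn+ (median 1.51), among them the aldehyde dehydrogenase Aldh2 with 448 and 512 CPM in lung and 70.3 and 99.9 CPM in P0 Emcn+ (2.56 ± 0.16) and the cytokine receptor chain Il6st with 915 and 1767 and 292 and 473 CPM (1.82 ± 0.24, or 1.47 and within the fold limit without lung replicate 2).

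Sinusoidal or venous genes were higher in P0 Emcn+ in 14 of 20 cases and higher in lung in none, with a median of -4.03, and this number was 13 to 15 in all alternative fits. Stab2, a hyaluronan and scavenger receptor of sinusoids, had 0.607 and 0.369 CPM in lung, 845 and 702 CPM in P0 Emcn+, against 11.1 and 1.92 CPM in P0 Emcn- (fold change on the log2 scale -10.73 ± 0.63, edgeR adjusted p = 1.55e-05). Kcnj8, a subunit of the ATP-sensitive potassium channel, had 0.469 and 0 CPM in lung and 206 and 102 CPM in P0 Emcn+ (-9.47 ± 0.96), and its partner subunit Abcc9 had 5 and 2.44 and 268 and 196 CPM (-5.99 ± 1.02). Dnase1l3, a secreted nuclease, had 3 counts in all in lung and 2670 in P0 Emcn+, a ratio of 897 (exact 95% counting interval 307 to 4354).

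Arterial genes split. Of 18, 8 were higher in lung and 9 in P0 Emcn+ (median -1.30), and 4 were called higher in P0 Emcn+ without lung replicate 1. Those higher in P0 Emcn+ were Dll4, Notch1, Notch4, Sox17, Sox18, Efnb2, Cd34, Cd200 and Podxl. Dll4, a Notch ligand, had 1.27 and 2.95 CPM in lung and 270 and 119 CPM in P0 Emcn+ (-6.29 ± 1.33), and Efnb2, an ephrin ligand of arteries, had 22.5 and 59.5 and 218 and 125 CPM (-2.07 ± 0.44). Efnb2 fell within the fold limit without lung replicate 1 (-1.18) or P0 Emcn+ replicate 1 (-1.42), and was not called with only the 4 libraries compared (-2.12, adjusted p = 0.0721). Those higher in lung included Fbln2 and Serpinf1, which encodes a secreted anti-angiogenic factor and had 632 and 558 CPM in lung and 9.92 and 12.9 CPM in P0 Emcn+ (5.74 ± 0.22). Ltbp4, a binding protein of latent TGF-beta and elastic fibres, was also of this kind, with 31.8 and 53.1 and 3.26 and 12.5 CPM (2.76 ± 0.35). The caveolar gene Cav1 was not called, at 323 and 291 CPM in lung and 368 and 833 CPM in P0 Emcn+.

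In the Notch pathway, 8 of 13 genes were higher in P0 Emcn+ and 2 in lung. Among the ligands, Dll4, Jag2 (0.359 and 0.922 CPM in lung, 25.1 and 18.7 CPM in P0 Emcn+, -5.11 ± 0.50) and Dll1 (2.79 and 1.61 CPM in lung, 35.4 and 43.2 CPM in P0 Emcn+, -4.21 ± 0.46) were lower in lung, while Jag1 was not called, at 48.2 and 83.4 and 168 and 182 CPM. The receptors were divided by type. Notch4, the endothelial receptor, had 7.29 and 28 CPM in lung and 926 and 744 CPM in P0 Emcn+ (-5.54 ± 1.17), whereas Notch3, the receptor of mural cells, had 37.7 and 29.6 CPM in lung and 3.49 and 3.71 CPM in P0 Emcn+ (3.24 ± 0.28). Notch2 was not called, at 106 and 130 and 186 and 248 CPM. Of the target genes, Hes1 was lower in lung, with 10.7 and 14.2 CPM against 140 and 93.3 CPM in P0 Emcn+ (-3.12 ± 0.54), and Hey1 had 3 counts in lung and 671 in P0 Emcn+, a ratio of 226 (exact 95% counting interval 76.8 to 1096). Hey2 was called in the other direction, with 75 counts in lung and 3 in P0 Emcn+, a ratio of 24.8 (exact 95% counting interval 8.17 to 123) and a call lost without lung replicate 2 (adjusted p = 0.069), and Heyl was not called.

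Genes of the angiopoietin and VEGF families were divided. The receptor genes Tek (6.13 and 7.05 CPM in lung, 168 and 125 CPM in P0 Emcn+, -4.47 ± 0.38), Tie1 (13.4 and 56 and 934 and 633 CPM, -4.32 ± 1.34), Kdr (-5.18 ± 0.94) and Flt4 (4.78 and 11.2 and 807 and 483 CPM, -6.17 ± 0.89) were called higher in P0 Emcn+, and the receptor genes Flt1 and Nrp1 were not called. The call of Tie1 was lost with only the 6 P0 and lung libraries (-4.29, adjusted p = 0.0612) and without lung replicate 1 (-3.02, adjusted p = 0.168), the replicate 1 library of P0 Emcn+ (-4.24, adjusted p = 0.0745) or the replicate 2 library of P0 Emcn+ (-4.56, adjusted p = 0.157). Vegfd, a ligand of Flt4, had 530 and 598 CPM in lung, 3.01 and 9.74 CPM in P0 Emcn+, against 214 and 721 CPM in P0 Emcn- (6.79 ± 0.73, edgeR adjusted p = 2.20e-04). Angpt1, the agonist of Tie2, had 24.9 and 15.2 CPM in lung and 2.22 and 1.82 CPM in P0 Emcn+ (3.32 ± 0.17), so that the ligands Angpt1 and Angpt2 differed in opposite directions. Pgf, placental growth factor, was the ligand gene lower in lung besides Angpt2, with 4.34 and 9.91 CPM against 546 and 425 CPM (-6.00 ± 1.12). In all, 3 of these 15 genes were higher in lung and 7 in P0 Emcn+ (median 0.29), the former number being 5 without P0 Emcn+ replicate 1, and Vegfb was not called, with 59 and 38.2 CPM in lung and 52 and 30.4 CPM in P0 Emcn+.

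The 12 largest differences towards P0 Emcn+ among named genes of at least 50 CPM in both of its libraries included Gpihbp1, Stab2, Lcp2, Ttn, Adgrg3, Kcnj8, Mmrn1, Csf2rb, Gimap4, Dapk2 and Cldn5. Each of these was below 3 CPM in both lung libraries. Ttn, the giant sarcomere protein titin known for heart and skeletal muscle, had 0.0552 and 0.184 CPM in lung and 79.2 and 103 CPM in P0 Emcn+ (-9.63 ± 0.69). Lcp2, a signalling adaptor of blood cells, had 0.221 and 0.784 CPM in lung and 406 and 401 CPM in P0 Emcn+ (-9.78 ± 1.22). Csf2rb, the common beta chain of the GM-CSF, interleukin-3 and interleukin-5 receptors, had 0.442 and 0.138 CPM in lung and 129 and 77.1 CPM in P0 Emcn+ (-8.56 ± 0.85), and it has a near-identical neighbour, Csf2rb2, so its reads may be split. Mmrn1, a binding protein of coagulation factor V in platelets and endothelium, had 0.442 and 0.0922 CPM in lung and 132 and 175 CPM in P0 Emcn+ (-9.00 ± 0.55).

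Macrophage transcripts moved with the P0 Emcn+ side, although the sort was for CD45- cells. Of 19 macrophage genes tested, 17 were higher in P0 Emcn+ and none in lung (median -4.95), and 16 to 18 were called in all alternative fits. The 20 listed genes summed to 35.5 and 29.4 CPM in lung, to 1362 and 1110 CPM in P0 Emcn+, as against 367 and 416 CPM in P0 Emcn-. Lyz2, the lysozyme of myeloid cells, had 11.5 and 10.8 CPM in lung and 322 and 334 CPM in P0 Emcn+ (-4.84 ± 0.55). Ptprc, which encodes CD45, had 0.166 and 0.184 CPM in lung and 7.73 and 4.02 CPM in P0 Emcn+ (-5.00 ± 0.53), and Adgre1, the F4/80 antigen, had 0.387 and 0.369 and 15.6 and 13.8 CPM (-5.23 ± 0.71). The complement gene C1qb had 1.1 and 0.922 CPM in lung and 57.2 and 55 CPM in P0 Emcn+ (-5.74 ± 0.47). Of the 6 defining markers none was at 0 in P0 Emcn+ or in lung. Mrc1, the mannose receptor, stands in this list and among the sinusoidal genes, and had 2.43 and 1.57 CPM in lung and 396 and 237 CPM in P0 Emcn+ (-7.25 ± 0.45). The part of these cells in the values of genes that both cell types express was not tested.

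Of 15 scavenger and uptake receptor genes tested, 8 were higher in P0 Emcn+ and 2 in lung (median -2.83). Besides Stab2 and Mrc1, the hyaluronan receptor Lyve1 was lower in lung, with 4.09 and 18.9 CPM against 113 and 299 CPM in P0 Emcn+ (-4.29 ± 0.52). Msr1, a scavenger receptor of macrophages, had 0.359 and 0.184 CPM in lung and 12.4 and 6.22 CPM in P0 Emcn+ (-5.03 ± 0.55). Lrp1, a large endocytic receptor of mesenchymal cells and macrophages, was the other way round, with 4548 and 6693 CPM in lung and 172 and 186 CPM in P0 Emcn+ (5.00 ± 0.27, edgeR adjusted p = 1.06e-05).

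Fibroblast genes were higher in lung in 27 of 30 cases and in P0 Emcn+ in none, with a median log2 fold change of 5.49. The number was 24 to 27 in all alternative fits. Col3a1, the chain of type III collagen, had 3112 and 4270 CPM in lung and 44.3 and 70.7 CPM in P0 Emcn+ (6.05 ± 0.35). Dcn, the proteoglycan decorin, had 902 and 1246 CPM in lung and 8.78 and 43.5 CPM in P0 Emcn+ (5.76 ± 0.56). Dpt, dermatopontin, had 383 and 346 and 1.77 and 2.63 CPM (7.40 ± 0.55), and Scara5, a ferritin receptor, 458 and 597 and 1.96 and 7.03 CPM (7.24 ± 0.47). Lung exceeded P0 Emcn+ in both batches for each. Fibronectin, Fn1, was not called at the fold limit although abundant on both sides, with 10026 and 15211 CPM in lung and 4208 and 5428 CPM in P0 Emcn+ (edgeR adjusted p = 0.00184). Vimentin, Vim, was at 1657 and 1428 CPM in lung and 2738 and 2941 CPM in P0 Emcn+ (-0.86 ± 0.20), also within the fold limit.

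Elastic fibre genes rose with them. Of 21, 17 were higher in lung and 1 in P0 Emcn+ (median 5.06). Eln, elastin itself, had 28.2 and 35.2 CPM in lung and 0.475 and 1.55 CPM in P0 Emcn+ (5.06 ± 1.13, or 4.31 with an adjusted p of 0.0719 without P0 Emcn+ replicate 1). Fbn2, fibrillin-2, had 41.9 and 179 CPM in lung and 0.475 and 0.58 CPM in P0 Emcn+ (7.48 ± 0.60). Lox, the enzyme that crosslinks elastin and collagen, had 2500 and 2185 CPM in lung and 59.2 and 58.5 CPM in P0 Emcn+ (5.34 ± 0.21). The exception was Fbln5, fibulin-5, with 60.2 and 145 CPM in lung and 459 and 301 CPM in P0 Emcn+ (-2.13 ± 0.53), so the related genes Fbln2 and Fbln5 were called in opposite directions. The call of Fbln5 was lost without lung replicate 1 (-1.82, adjusted p = 0.138) or the replicate 1 library of P0 Emcn+ (-0.86, adjusted p = 0.0795), with only the 6 P0 and lung libraries (-2.17, adjusted p = 0.0511) and with only the 4 compared (-1.93, adjusted p = 0.0627).

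Basement membrane genes divided by chain. Of 22, 6 were higher in lung and 5 in P0 Emcn+ (median 0.57). Laminin alpha-2, Lama2, had 571 and 702 CPM in lung and 3.8 and 8.89 CPM in P0 Emcn+ (6.74 ± 0.37), and collagen Col4a5 had 122 and 149 and 1.2 and 2.13 CPM (6.42 ± 0.18). Laminin alpha-5, Lama5, had 54.4 and 57.7 CPM in lung and 546 and 532 CPM in P0 Emcn+ (-3.23 ± 0.47), and perlecan, Hspg2, 1205 and 2016 and 8383 and 6933 CPM (-2.20 ± 0.33). The shared chain Lamc1 was not called, with 763 and 981 CPM in lung and 983 and 1196 CPM in P0 Emcn+.

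Mural genes, those of pericytes and smooth muscle, were higher in lung in 7 of 13 cases tested and in P0 Emcn+ in 2, the channel genes Kcnj8 and Abcc9. Acta2, smooth muscle actin, had 111 and 118 CPM in lung and 7 and 29.9 CPM in P0 Emcn+ (2.82 ± 0.53). The defining pericyte gene Rgs5 stayed below 1 CPM in all 4 libraries. Among osteolineage genes, 7 of 17 tested were higher in lung and 3 in P0 Emcn+. Spp1, osteopontin, was among the former, with 1464 and 401 CPM in lung and 180 and 61.2 CPM in P0 Emcn+ (2.90 ± 0.25). The osteolineage genes called higher in lung numbered 3 when lung replicate 1 or P0 Emcn+ replicate 2 was left out and 4 when P0 Emcn+ replicate 1 was, and those called higher in P0 Emcn+ numbered 1 without lung replicate 1, lung replicate 2 or P0 Emcn+ replicate 1. Ibsp, bone sialoprotein, had 0 counts in lung and 164 in P0 Emcn+, at least 55.1-fold lower in lung against 3 counts over the group, a call lost without lung replicate 2 (adjusted p = 0.162). Lung epithelium and mesothelium were scarce. Epcam, Cdh1 and Sftpc were at 0 in both lung libraries, and the 16 epithelial genes summed to 7.12 and 13.7 CPM there, with 3 of 7 tested called higher in lung and 1 in P0 Emcn+, and 1 in lung without P0 Emcn+ replicate 1. Msln, a mesothelial marker, had 1.46 and 11.2 CPM in lung and 0 counts in P0 Emcn+, at least 97.5-fold higher in lung against 3 counts over the group, and was the higher in lung 2. The 11 mesothelial genes in the table summed to 14.9 and 44.3 CPM in lung and to 40.7 and 43.7 CPM in P0 Emcn+, and 6 of 9 tested were higher in lung and 1 in P0 Emcn+ (median 5.70, or 3.80 with genes absent from a group set at their bound). None of these 6 reached 5 CPM in both libraries of a side, while the 1 higher in P0 Emcn+ did. No epithelial gene tested reached that limit.

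The 12 largest differences towards lung among named genes of at least 50 CPM in both lung libraries included Ptn, Cxcl13, C7, Gpc3, Folh1, Aox3, Gpr39, Plac8, Adh1 and Hpca. Ptn (chr6:36714929-36810220, minus strand), the heparin-binding growth factor pleiotrophin, had 158 and 105 CPM in lung, where 7990 counts were read, and 1 count in P0 Emcn+, a ratio of 7925 (exact 95% counting interval 1422 to 313055). Cxcl13 (chr5:95956951-95961068, plus strand), the chemokine that draws B cells, had 1022 and 926 CPM in lung, 0.0951 and 0.464 CPM in P0 Emcn+, against 28.4 and 84.3 CPM in P0 Emcn- (edgeR adjusted p = 1.67e-05 against P0 Emcn+). Folh1, a folate hydrolase, had 293 and 290 CPM in lung and 0.317 and 0.271 CPM in P0 Emcn+ (9.95 ± 0.25), the closest pair of lung values among those named. C7, a component of the complement attack complex, had 71.4 and 500 CPM in lung and 0.0634 and 0.425 CPM in P0 Emcn+ (10.53 ± 1.77), with lung 2 far above lung 1.

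Some of these genes encode enzymes. Adh1, an alcohol and retinol dehydrogenase, had 854 and 721 CPM in lung and 1.33 and 2.13 CPM in P0 Emcn+ (9.09 ± 0.99), and the aldehyde oxidase Aox3 had 67.5 and 92.6 and 0.0951 and 0.116 CPM (9.74 ± 0.86). Gpc3, a glypican, had 188 and 81.2 CPM in lung and 0.127 and 0.116 CPM in P0 Emcn+ (10.32 ± 1.35). Lung also exceeded both P0 Emcn- libraries in all of them. For Adh1 the P0 Emcn- values were 26.6 and 258 CPM and for C7 1.49 and 40.7 CPM, and among the lung genes just listed these were the ones not called against P0 Emcn-.

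Genes of the lung field, which mark the embryonic lung mesenchyme and its Hox domain, were higher in lung in 14 of 22 cases and in P0 Emcn+ in none. The median was 4.46, or 4.31 with genes absent from a group set at their bound. Foxf1, the forkhead factor of lung mesenchyme and vessels, had 47.9 and 34 CPM in lung and 0.19 and 0.696 CPM in P0 Emcn+ (6.62 ± 0.63). Tbx5 had 21.5 and 25.3 CPM in lung and 0.0951 and 0.155 CPM in P0 Emcn+ (7.56 ± 0.53), and Foxf2 had 556 counts in lung against 3 in P0 Emcn+, a ratio of 184 (exact 95% counting interval 62.6 to 894). Tcf21, a factor of lung and kidney mesenchyme, had 408 counts in lung and none in P0 Emcn+ or P0 Emcn-, at least 135-fold higher in lung than in P0 Emcn+ against 3 counts over the group, a call lost without lung replicate 1 (adjusted p = 0.0555) and with DESeq2 (adjusted p = 0.165). The epithelial lung factor Nkx2-1 stayed below 0.2 CPM in all libraries of the comparison.

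Genes of the limb and posterior Hox list mostly ran the other way. The lung field gene Hoxa5 was higher in lung, with 44.5 and 41.8 CPM against 12 and 11.6 CPM in P0 Emcn+ (1.91 ± 0.26), while Hoxb3 (44.9 and 39 CPM in lung, 34.4 and 20.7 CPM in P0 Emcn+) was not called. Of 18 genes tested in the limb and posterior Hox list, which also holds Pitx1, 9 were higher in P0 Emcn+ and 2 in lung. The median was -2.62, or -2.37 at the bounds. Only 3 of the 18 reached 5 CPM in both libraries of a side, and these 3 were called higher in P0 Emcn+. Hoxd8 and Hoxd9, neighbours on chromosome 2, had the highest levels of these genes in P0 Emcn+. Hoxd8 (chr2:74704615-74707933, plus strand) had 0.221 and 0.415 CPM in lung, 57.5 and 48.1 CPM in P0 Emcn+, against 10.6 and 14 CPM in P0 Emcn- (-7.41 ± 0.58). Hoxd9 (chr2:74697727-74700208, plus strand) had 3 counts in lung and 854 in P0 Emcn+, a ratio of 287 (exact 95% counting interval 97.9 to 1394). Hoxa9 had 0.11 and 0.184 CPM in lung and 7.16 and 5.8 CPM in P0 Emcn+ (-5.46 ± 0.46), and Hoxa10 0.138 and 0.138 and 5.61 and 4.37 CPM (-5.10 ± 0.47). Hoxc10 was below 1 CPM in lung and P0 Emcn+ but had 48 and 44.4 CPM in P0 Emcn-, and Pitx1, the hindlimb factor, had 9.27 and 4.74 CPM there and 0 counts in lung.

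**Figure D4:**
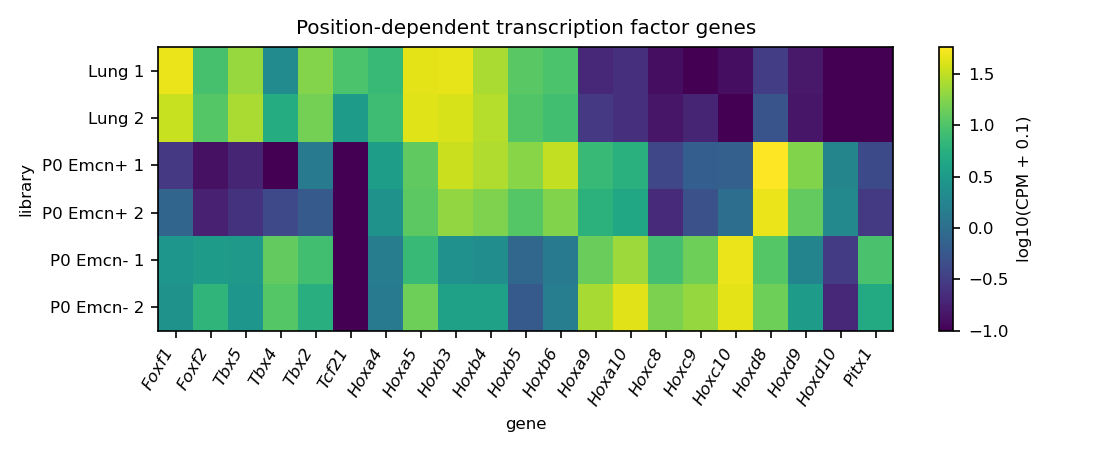
Level of 21 transcription factor genes, as log10(CPM + 0.1), in the 2 lung, 2 P0 Emcn+ and 2 P0 Emcn- libraries. Lung field factors from Foxf1 to Tcf21 are brightest in lung apart from Tbx4, which is brightest in P0 Emcn-. Hoxb3 to Hoxb6 are bright in lung and P0 Emcn+, and Hoxa9 to Pitx1 are dark in lung.

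Interferon response genes were higher in lung in 15 of 21 cases and in P0 Emcn+ in none, with a median log2 fold change of 2.19. Ifit3, an antiviral effector, had 1646 and 244 CPM in lung, 12.5 and 34.9 CPM in P0 Emcn+, against 28.3 and 51.8 CPM in P0 Emcn- (5.36 ± 1.04, edgeR adjusted p = 0.00418). Ifit1, of the same family and neighbourhood on chromosome 19, had 754 and 108 CPM in lung and 10.6 and 20.9 CPM in P0 Emcn+ (4.80 ± 1.01). Reads of Ifit3 and its near-identical copy Ifit3b may be split between them. Isg15, a ubiquitin-like modifier, had 189 and 59.9 CPM in lung and 16.4 and 21.8 CPM in P0 Emcn+ (2.63 ± 0.50), and Mx1 43.2 and 2.95 and 0.444 and 0.425 CPM (5.19 ± 1.00). All 21 genes were higher in lung 1 than in lung 2. Oas2 was the most even, with 151 and 125 CPM in lung and 2.06 and 2.67 CPM in P0 Emcn+ (5.91 ± 0.25), and Irf7, the factor that amplifies interferon expression, had 225 and 135 and 22.3 and 31.6 CPM (2.81 ± 0.32).

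The number of interferon genes called rested on single libraries, and Mx1 (3.82, adjusted p = 0.061) and Ifit1 (3.71, adjusted p = 0.075) were not called without P0 Emcn+ replicate 1. With only the 4 libraries compared 9 were called, and neither Ifit3 (4.97, adjusted p = 0.0601) nor Ifit1 (4.31, adjusted p = 0.0602) was among them. The number was 9 without lung replicate 1, 19 without lung replicate 2, 6 without the replicate 1 library of P0 Emcn+ and 17 without its replicate 2, with 1 gene called higher in P0 Emcn+ without lung replicate 1. The median log2 fold change without lung replicate 1 was 1.19. Bst2 was not called, with 235 and 154 CPM in lung and 241 and 207 CPM in P0 Emcn+. Rsad2, the antiviral enzyme viperin, crossed between batches, with 143 and 15.2 CPM in lung and 41.9 and 86.4 CPM in P0 Emcn+, so that lung was the higher in batch d and the lower in batch a.

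The core of the interferon-stimulated response element reads GAAA, then any 2 bases, then GAAA again, and this was searched in the same 250 bases on both strands, matches that overlap each other included. It stood in 12 of the 16 interferon genes with a promoter sequence (75%), against 3.46% of all 27025 symbols, 0 of 17 pan-endothelial genes and 0 of 19 fibroblast genes. Among the other lists the highest shares were 3 of 14 elastic fibre genes (21.4%) and 3 of 17 chemokine genes (17.6%). The following 4 stretches from genes of this list show it in capitals, 5′ to 3′ on the strand of each gene. In Ifit1 and Ifit3 the element reads on the opposite strand.
Isg15, chr4:156200860-156200911, minus strand: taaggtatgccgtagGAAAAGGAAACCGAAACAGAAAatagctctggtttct
Ifit1, chr19:34640770-34640828, plus strand: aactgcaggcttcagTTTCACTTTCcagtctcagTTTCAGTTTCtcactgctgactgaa
Ifit3, chr19:34583358-34583431, plus strand: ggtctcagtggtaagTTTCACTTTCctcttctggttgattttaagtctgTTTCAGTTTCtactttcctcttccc
Oas1a, chr5:120907526-120907560, minus strand: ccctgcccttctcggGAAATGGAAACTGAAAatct
Isg15 carried 3 overlapping matches and the other three 2 each. Oas1a was not called, at 52.3 and 31.6 CPM in lung and 16.8 and 17.2 CPM in P0 Emcn+ (1.29 ± 0.34), while the other three were higher in lung. A match describes the letters only.

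**Figure D5:**
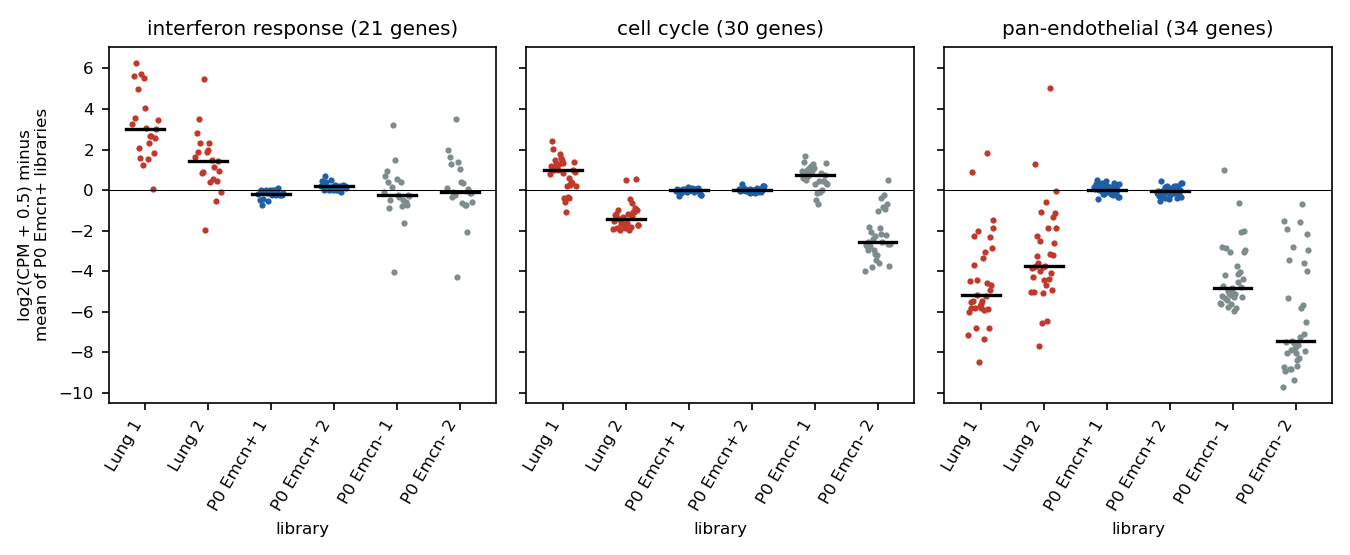
Level of each gene of 3 lists in each library, as log2(CPM + 0.5) minus the mean of the P0 Emcn+ libraries (points, genes; bars, median). By their medians, interferon genes are highest in lung 1, cell cycle genes are above P0 Emcn+ in lung 1 and P0 Emcn- 1 and below it in lung 2 and P0 Emcn- 2, and pan-endothelial genes are lower in lung and P0 Emcn- than in P0 Emcn+.

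The chemokine genes included both extremes. Of 23 tested, 5 were higher in lung and 6 in P0 Emcn+ (median -0.08). Besides Cxcl13, the eosinophil chemokine Ccl11 was higher in lung, with 24.1 and 29 CPM against 0.0634 and 0.0773 CPM in P0 Emcn+ (8.52 ± 0.70). Ccl2, which draws monocytes, was higher in P0 Emcn+, with 350 and 700 CPM against 36 and 31.4 CPM in lung (-3.94 ± 0.74), and so were the macrophage chemokines Ccl3 (0.193 and 0 CPM in lung and 6.15 and 7.46 CPM in P0 Emcn+) and Ccl4. Cxcl12, which retains stem cells in marrow, was not called, with 814 and 800 CPM in lung, 217 and 407 CPM in P0 Emcn+, against 2541 and 1858 CPM in P0 Emcn- (1.43 ± 0.54).

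Of 24 haematopoietic support genes tested, 8 were higher in lung and 7 in P0 Emcn+. The lung side held Ptn, Angpt1 and Rspo3, a potentiator of Wnt signalling with 49.1 and 34.4 CPM in lung and 0.507 and 0.618 CPM in P0 Emcn+ (6.24 ± 0.49). The P0 Emcn+ side included the Notch ligand Dll4 and Pdgfb, which had 1.93 and 11 CPM in lung and 216 and 188 CPM in P0 Emcn+ (-5.01 ± 1.46). Pdgfb was not called without lung replicate 1 (-3.76, adjusted p = 0.167), the replicate 1 library of P0 Emcn+ (-4.82, adjusted p = 0.0974) or the replicate 2 library of P0 Emcn+ (-5.36, adjusted p = 0.139). Leaving out replicate 1 of either side, 4 were called higher in P0 Emcn+. Stem cell factor, Kitl, was not called, with 41.3 and 53 CPM in lung and 70.6 and 64.9 CPM in P0 Emcn+.

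Of the 20 genes listed for lung endothelium, 7 were higher in lung and 7 in P0 Emcn+. The lung side was made up of Foxf1, Vwf, Sema3c and 4 others. Sema3c, a secreted semaphorin, had 124 and 87.9 CPM in lung and 0.349 and 1.47 CPM in P0 Emcn+ (7.57 ± 1.45). Ednrb, the endothelin receptor of lung capillaries, was lower in lung, with 2.1 and 1.38 CPM against 199 and 31.8 CPM in P0 Emcn+ (-5.60 ± 0.48), and so was Cyp4b1, with 10.8 and 16.1 against 705 and 808 CPM (-5.78 ± 0.75). Car4, the carbonic anhydrase of lung capillaries, stayed at or below 0.1 CPM in all 4 libraries.

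Of 15 coagulation genes tested, 4 were higher in lung and 3 in P0 Emcn+. F3, tissue factor, which starts clotting, had 70.4 and 48.5 CPM in lung and 1.36 and 0.309 CPM in P0 Emcn+ (6.30 ± 0.74). F8, factor VIII, ran the other way, with 5.47 and 6.04 CPM in lung and 217 and 187 CPM in P0 Emcn+ (-5.10 ± 0.18), so that Vwf and F8, whose products circulate as a complex, were called in opposite directions. Plau, urokinase, was higher in P0 Emcn+, with 423 and 321 CPM against 33.4 and 61.9 CPM in lung (-2.96 ± 0.32). Of 11 leukocyte adhesion genes tested, 1 was higher in lung and 4 in P0 Emcn+, and the latter number was 1 without lung replicate 1 or P0 Emcn+ replicate 2. Icam2 had 1.77 and 4.93 CPM in lung and 141 and 135 CPM in P0 Emcn+ (-5.35 ± 1.21) and was not called without these libraries (-4.41, adjusted p = 0.0712, and -5.29, adjusted p = 0.0681). Of 10 genes of caveolae and fenestrae, 1 was higher in lung and 2 in P0 Emcn+, against 12.8% and 8.63% of all genes tested.

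Cell cycle genes crossed between the batches. Of 30, 1 (Mcm3) was called higher in P0 Emcn+ and none in lung. Mki67, the Ki-67 antigen, had 437 and 65.6 CPM in lung, 240 and 261 CPM in P0 Emcn+, against 478 and 15.5 CPM in P0 Emcn-. All 30 genes were higher in replicate 1 than in replicate 2 of lung and also of P0 Emcn-, while 14 of 30 were so in P0 Emcn+. Leaving out P0 Emcn+ replicate 1 made 18 of the 30 higher in P0 Emcn+, and leaving out its replicate 2 made 11 higher in lung and ended the call of Mcm3 (-1.03, within the fold limit). The median log2 fold change of the list was -0.46, or -0.95 without lung replicate 1 and 0.05 without lung replicate 2, with 1 gene called higher in P0 Emcn+ each time. Mcm3 also fell within the fold limit without the replicate block (-1.43), with only the 4 libraries compared (-1.48) and with ashr shrinkage (-1.48). Of the 5 named genes whose within-batch ratios opposed each other most, 3 act in chromosome segregation. Cenpe, a kinetochore motor, had 180 and 18.1 CPM in lung and 56.6 and 63.1 CPM in P0 Emcn+, Spdl1, an adaptor of kinetochore dynein, 33.5 and 3.32 and 10.4 and 11.5 CPM, and Nusap1, a spindle protein, 79.9 and 8.02 and 24.7 and 24.7 CPM. The histone gene H2ac24 had 60.4 and 8.71 and 14.2 and 42.4 CPM, and Rsad2 was the fifth. In all 5 lung exceeded P0 Emcn+ in batch d and lay below it in batch a.

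Of 10 senescence and cyclin inhibitor genes, 2 were higher in lung, or 4 without either replicate 2. Cdkn2a, which encodes p16 and p19Arf, had 84.2 and 34.8 CPM in lung and 7.57 and 4.99 CPM in P0 Emcn+ (3.20 ± 0.27), and Cdkn1c, p57, had 105 and 86.5 and 2.12 and 5.49 CPM (4.97 ± 0.74). Of 18 immediate early genes, 2 were higher in lung and 5 in P0 Emcn+, or 4 and 3 without P0 Emcn+ replicate 1. Atf3, a stress-induced factor, had 1.05 and 1.01 CPM in lung and 45 and 41.7 CPM in P0 Emcn+ (-5.36 ± 0.35), and Egr2 33.7 and 27.5 and 0.665 and 1.35 CPM (5.04 ± 0.61). Of 20 glycolysis genes, 1 was higher in lung and 2 in P0 Emcn+, and the latter number was 8 without lung replicate 2 and 1 without lung replicate 1. Slc16a3, a lactate exporter, had 0.166 and 0.231 CPM in lung, 79.2 and 6.84 CPM in P0 Emcn+, against 69.8 and 2.02 CPM in P0 Emcn- (-7.83 ± 0.95), with replicate 1 of both marrow groups far above replicate 2. None of the 10 reference genes (median -0.26) and none of the 5 sex-linked genes tested was called. All 4 libraries held both X-inactivation and Y-linked transcripts. Xist had 696 and 277 CPM in lung and 476 and 647 CPM in P0 Emcn+. Ddx3y, on the Y chromosome, had 44.3 and 65.9 CPM in lung and 76 and 27.7 CPM in P0 Emcn+. Whether a library pooled mice of both sexes was not tested. Without P0 Emcn+ replicate 1, 2 sex-linked genes were called higher in lung.

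Against P0 Emcn-, which shares the lung libraries with the comparison above, the same fit called 484 genes (2.49%) higher in lung and 362 (1.87%) higher in P0 Emcn-. Of the fibroblast genes, 1 was higher in lung and none in P0 Emcn- (median -0.33), and of the elastic fibre genes 3 and none (median -0.24). Among pan-endothelial genes 2 were higher in lung and 1 in P0 Emcn- (median 1.19). The exceptions in lung were Vwf (log2 fold change over P0 Emcn- 4.45 ± 0.73) and Gata2, with 4.51 and 4.64 CPM in P0 Emcn- (2.35 ± 0.31), and the exception in P0 Emcn- was Tek, with 20.3 and 49.4 CPM there (-2.26 ± 0.35). The macrophage genes were higher in P0 Emcn- in 15 of 19 cases. Lung field genes were higher in lung in 10 of 22 cases and genes of the limb and posterior Hox list higher in P0 Emcn- in 13 of 18. Interferon genes were higher in lung in 14 of 21 cases (median 2.62). A median near 0 or a missed threshold in this contrast does not show that lung and P0 Emcn- are alike.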

How the data were processed

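Bulk RNA of sorted cultured cells was read as 1 table of gene counts for 15 libraries. The authors aligned reads to GRCm38 with STAR, estimated counts per gene with Salmon and imported them with tximport, and the deposited counts are whole numbers per gene, not normalised. How Salmon's estimates became whole numbers is not described. Whether counting used strand is not described either, so overlapping genes are uncertain. GENCODE M21 annotated 44118 of the 44674 identifiers.

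A single model was fitted to all 15 libraries with edgeR 4.0.16 (TMM factors, filterByExpr with a minimum count of 10 and a total of 15, glmQLFit, glmQLFTest), with a coefficient per condition and the batch as a block. Among the lung and P0 groups, same-numbered libraries share a batch by the labels, and their deviations from the group means correlated at 0.139 to 0.209. P-values were adjusted by the Benjamini-Hochberg method over 19401 genes, and SE is the log2 fold change divided by the root of F. Residual degrees of freedom numbered 5. The fit was run on simulated data in which 200 genes were changed in lung. Those data held no batch effect and no other difference between groups, so they do not test the fit under either. The CPM used library totals. The genes described and the gene lists were chosen with earlier results of these data known. Named were Cdh5, Angpt2, Fbln2, Pdgfra and Emcn, the 12 called genes of largest fold change in each direction with at least 50 CPM in both libraries of the higher side, up to 6 genes a list (those called with the largest fold change and those of at least 20 CPM with the smallest), the markers and the 5 genes most opposed between batches. Another 27 genes outside this rule, such as Isg15, Fbln5, Hoxa9 and Mki67, were chosen after their values were seen. Exact intervals and limits for counts of 0 (3 counts) cover counting error only. Alternatives were DESeq2 1.42.0 with and without ashr shrinkage, other size factors, filters and sets of libraries, no block, and each library left out. Some genes that the naming rule selects are not reported here.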

Additional observations from a re-analysis of the deposited data

How the results depend on the processing

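Across the alternatives, 1942 to 2499 genes were called higher in lung and 1129 to 1720 higher in P0 Emcn+, and 219 to 273 list genes (268 as reported). Without the fold limit these were 4230 and 3601 genes. Without the replicate block, 2440 and 1645 genes were called, and among the called genes examined singly the block turned no sign. Leaving out each library in turn gave log2 fold changes from -8.44 to -4.26 for Cdh5 and from -6.13 to -4.85 for Angpt2, and the calls lost are given with the genes. Of 219 genes examined singly, 31 turned sign under an alternative and 0 of them were called as reported. Among those named, the replicate block decided the sign of Rsad2 (0.36 without it), H2ac24 (0.35), Cenpe (0.78), Spdl1 (0.81), Nusap1 (0.88) and Mki67 (0.05). With only the 4 libraries compared, Cenpe was at 0.01, Spdl1 at 0.08 and Nusap1 at 0.13. Leaving out 1 library at a time moved log2 fold changes from -2.26 to 1.53 for Rsad2, -2.16 to 2.02 for H2ac24, -1.99 to 1.91 for Cenpe, -1.86 to 1.78 for Spdl1, -1.72 to 1.81 for Nusap1, -3.60 to 1.00 for Nkx2-1, -0.52 to 0.54 for Heyl and -2.43 to 1.51 for Mki67. The cause was not tested. Each side held 2 libraries, and lung genes below 0.138 CPM rest on 3 counts or fewer in the shallower library.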

Other observations

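A rule chosen after seeing the data asked which genes stood alone in lung, with the lower of its libraries at 5 CPM or more and over 3 times the highest of the other 13 libraries of the series. It was met by 30 genes in lung and by 452 in P0 Emcn+. The lung genes included the neighbours Foxf1 (chr8:121084386-121088144, GRCm38) and Fendrr (chr8:121054882-121083110), a long noncoding RNA of the same locus. Fendrr lay between 14.4 and 15.9 CPM in lung and reached 0.674 CPM elsewhere, and Foxf1 lay between 34 and 47.9 CPM and reached 10.4 CPM elsewhere. Further transcription factor genes were Tbx20 (5.95 to 11.8 CPM in lung, at most 0.913 CPM elsewhere), Nkx6-1 (9.64 to 18.7 CPM, at most 1.49 CPM) and Lhx8 (11.6 to 20.7 CPM, at most 3.5 CPM). Ahsg, which encodes the plasma protein fetuin-A, lay between 31.1 and 72.4 CPM in lung and reached 3.53 CPM elsewhere, and Syt1, a synaptotagmin, lay between 12 and 22.3 CPM and reached 0.852 CPM.

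Among the P0 Emcn+ genes were the matrix gene Tnc, tenascin-C, at 3068 to 3788 CPM against at most 214 CPM in the other 13 libraries, and Odc1, the first enzyme of polyamine synthesis, at 1700 to 1716 CPM against at most 135 CPM. Itgb3, the integrin beta-3 chain, lay between 927 and 931 CPM and reached 40.8 CPM elsewhere. Trp53i11 lay between 1327 and 1690 CPM and reached 47.4 CPM elsewhere. No test was made on these genes, which were picked for standing apart.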
